A study of Homo sapiens with 3 samples.

Results

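The 9 genes described here are regulators of epithelial identity, the splicing factors ESRP1 and ESRP2 and the transcription factors GRHL1, GRHL2, OVOL1, OVOL2, ELF3, EHF and KLF5. The set was drawn up with earlier results of these arrays known. Its members were found by gene symbol among the non-control probes, and 11 of 58200 probes and 9 of 43316 genes matched. mRNA of 3 human lung cancer cell lines was measured, with 1 Agilent single-colour array per line and all 3 arrays on the same slide. H1975 is the parental non-small cell lung cancer line with mutant EGFR, sensitive to osimertinib, an inhibitor of mutant EGFR. OR1 and OR2 are the resistant lines derived from it independently by raising osimertinib stepwise up to 2 μmol/L over 4 months. All 3 lines therefore share the EGFR-mutant H1975 origin, and each resistant line is the outcome of a single selection.

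Epithelial cells hold together through junction proteins and are kept in that state by a small set of regulators. ESRP1 and ESRP2 bind RNA and choose the epithelial exons of transcripts such as FGFR2 and CD44. Grainyhead-like factors (GRHL1, GRHL2) activate genes of cell junctions, including CDH1, which encodes E-cadherin. OVOL1 and OVOL2 are zinc finger repressors known for holding down ZEB1, and ZEB1 in turn represses ESRP1, GRHL2, OVOL2 and CDH1, so that the factors of each side oppose the other. ELF3 and EHF are epithelium-specific ETS factors, and KLF5 is a Krüppel-like factor of proliferating epithelium.

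Every value below is the fluorescence of a probe of 60 bases, so the first 30 bases of the probes are shown for the genes whose comparison rests on them. They are written 5′ to 3′ as the files give them, in lower case, with hg19 positions of the printed bases. The GRHL1 probe named first is the brighter of its pair. The probes of ESRP1 and GRHL2 are given by position only. No hg19 gene model was used here, so the exon or untranslated region under a probe is not stated. Of the 11 probes, 10 carried a RefSeq accession found in the RefSeq gene table, each with the same symbol. The remaining probe, for OVOL2, is named by the files through the transcript ENST00000483661.
ESRP2 (NM_024939, chr16:68263084-68263113, minus strand): ctcaactgctggctcttcttccctttgtat
GRHL1 (NM_198182, chr2:10142232-10142261, plus strand): ctaatgaagtatgggaactaaattgctggt
GRHL1 (second probe, chr2:10132177-10132206, plus strand): tggatatcacagttttcaaacccttcattg
OVOL1 (NM_004561, chr11:65564519-65564548, plus strand): ctgtattctgaaagtcacatagcacacagt
OVOL2 (chr20:18005049-18005078, minus strand): tgtctggcgcagttgctcacattcaccaaa
ELF3 (NM_004433, chr1:201984429-201984458, plus strand): aggttctccagagtcggaactgagggttgg
EHF (NM_012153, chr11:34681911-34681940, plus strand): tatctgtttactgtctcatctgaactgatc
KLF5 (NM_001730, chr13:73650979-73651008, plus strand): cgttgaattgatgatgcagttttcatatat

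The RefSeq promoter table used (GRCh38.p14) held no promoter of ESRP1, ESRP2, GRHL2, OVOL1 or OVOL2, so these genes were not searched. Promoters of GRHL1, ELF3, EHF and KLF5 were read from it, as the 250 bases before each start site. They were searched for the E-box CAGGTG or its reverse complement CACCTG, which ZEB and SNAI repressors bind, and for the grainyhead motif AACCGGTT, which is its own reverse complement. The promoters of GRHL1 and ELF3 are shown because the mRNA of GRHL1 was lower in both resistant lines while that of ELF3 did not pass the same ratio. Capitals mark the E-box.
GRHL1 (chr2:9951443-9951692, plus strand): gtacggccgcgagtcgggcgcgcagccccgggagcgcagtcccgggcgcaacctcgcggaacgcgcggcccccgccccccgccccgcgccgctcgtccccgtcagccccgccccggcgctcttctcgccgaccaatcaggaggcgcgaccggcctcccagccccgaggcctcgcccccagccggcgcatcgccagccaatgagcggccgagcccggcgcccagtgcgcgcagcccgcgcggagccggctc
ELF3 (chr1:202010337-202010586, plus strand): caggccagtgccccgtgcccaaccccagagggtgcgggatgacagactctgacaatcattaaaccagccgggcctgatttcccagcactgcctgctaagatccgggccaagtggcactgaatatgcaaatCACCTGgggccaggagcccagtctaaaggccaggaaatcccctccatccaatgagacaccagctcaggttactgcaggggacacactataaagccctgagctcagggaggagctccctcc
The window of ELF3 held 1 E-box, CACCTG, starting 120 bases before the start site, and had a GC content of 58.4%. The window of GRHL1 had a GC content of 81.6% and held neither motif, as did both windows of KLF5 and both of EHF. Among 35116 promoters of this length, 17.5% held the E-box and 0.117% the grainyhead motif. These matches describe letters only and no binding was measured.

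A ratio is the scaled intensity of OR1 or OR2 divided by that of H1975, after each array was set on its 75th percentile, an intensity of 157 in H1975, compared with 138 in OR1 and 162 in OR2. A gene was called lower at a ratio of at most 0.5 and higher at a ratio of at least 2, the ratios named in the study's methods. The scanner software calls a spot well above background or not, and the dimmest probe so called had an intensity of 12.6 in H1975, against 11.4 in OR1 and 12.6 in OR2. Where only 1 side of a ratio was well above background, the dim side was set to that intensity or to its own signal if higher, and the fold is only a limit, given with "at least" or "at most". A technical SD was taken for each log2 ratio from the scanner software's error estimate, with a median of 0.20 over genes in each resistant line, and does not cover variation between cultures. With 1 array per line, no ratio has a test. The number of arrays limits the precision.

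The lines were checked against cell type markers. All 6 epithelial markers were well above background on every array, and their summed intensity was 390544 in H1975, compared with 147897 in OR1 and 172181 in OR2. Of these sums, KRT7 made up 131484, 18866 and 22949, and KRT19 149897, 60841 and 75838. KRT8 had ratios of 1.12 in OR1 and 0.964 in OR2, and KRT18 had 0.884 and 0.806. EPCAM had ratios of 0.0370 and 0.0725, and CDH1 of 0.0205 and 0.0800. Of 3 lung lineage markers, 2 were above background in each line, at sums of 873, 212 and 1234. Of 4 mesenchymal markers, 3 were well above background in each line, with sums of 33453, 44941 and 61846, and CDH2 was not. VIM made up most of these sums, at 1.58 times H1975 in OR1 and 1.83 times in OR2, while SPARC was at ratios of 0.0314 and 0.714 and FN1 at 0.735 and 0.205. Of 6 fibroblast markers, H1975 had 2 above background, OR1 had 3 and OR2 had 1, with sums of 673, 685 and 104. Of 4 leukocyte markers, 3 were above background in each line, with sums of 579, 1215 and 2179, of which CD14 made up 264, 984 and 1779, and CD3E was not. All 3 endothelial markers were above background at summed intensities of 89.0, 97.9 and 104. The part of these markers in the results below was not tested.

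Of the 9 regulators, 6 were lower in both OR1 and OR2 than in H1975, and none was higher in either line. Over the 22417 genes well above background on at least 1 array, 6.32% were lower in both lines and 5.09% were higher in both. Taking the lines singly, 9.34% of these genes were lower in OR1 and 8.41% in OR2, against 6 of the 9 regulators in each line. The median log2 ratio of the 8 regulators with a ratio was -3.73 in OR1 and -3.34 in OR2, with bounds at their bound. The same median over all genes was 0.04 in OR1 and -0.06 in OR2. Of the 8 regulators above background in H1975, 4 (OVOL1, OVOL2, GRHL2 and ESRP1) were not above background in either resistant line. Among all 20330 genes above background in H1975, 966 (4.75%) had this pattern. In bulk RNA, fewer cells expressing a gene and less of its mRNA per cell cannot be told apart.

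**Figure D1:**
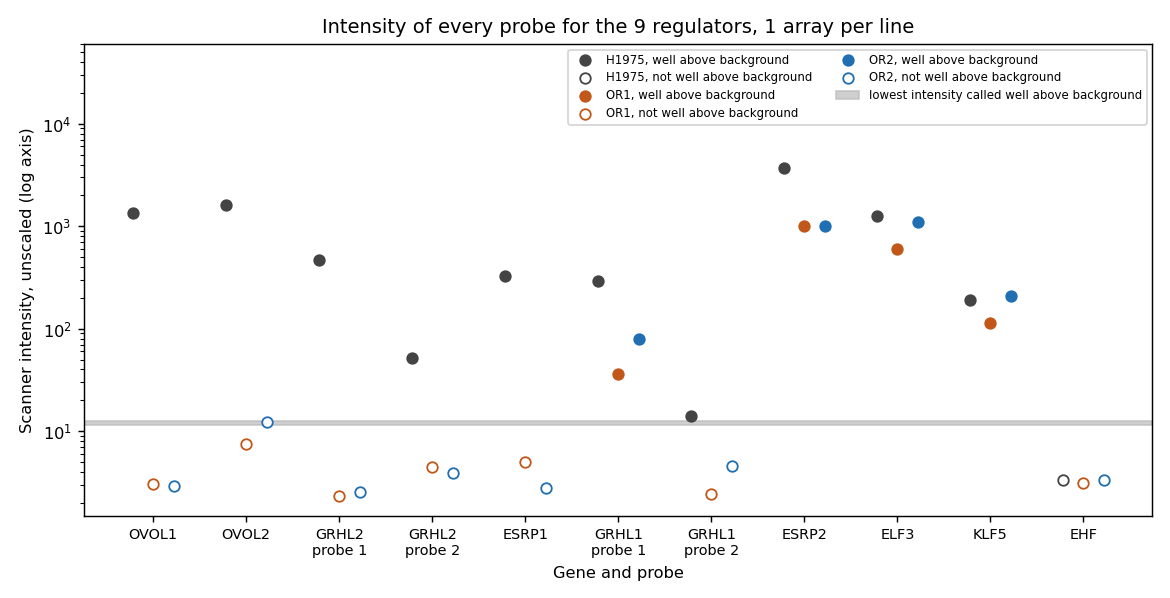
Scanner intensity (log axis, not scaled between arrays) of each of the 11 probes in H1975, OR1 and OR2, 1 point per array. Filled points are well above background and open points are not. The points of OVOL1, OVOL2, GRHL2 and ESRP1 are filled in H1975 and open in both resistant lines, those of ESRP2, ELF3, KLF5 and the brighter GRHL1 probe are filled in all 3, and EHF is open in all 3.

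OVOL1 and OVOL2, the zinc finger repressors, were well above background in H1975 only. The OVOL1 probe (chr11:65564519-65564578 of hg19) gave an intensity of 1333 in H1975, against 3.08 in OR1 and 2.93 in OR2. Neither resistant line was above background, and OVOL1 was at least 102-fold lower in OR1 and at least 109-fold lower in OR2. The OVOL2 probe (chr20:18005019-18005078, minus strand) gave 1621 in H1975, compared with 7.56 in OR1 and 12.2 in OR2. The OR2 value lay just under the dimmest signal called well above background on that array. OVOL2 was at least 125-fold lower in OR1 and at least 132-fold lower in OR2. Each bound depends on how far the H1975 signal lay above the detection limit, so the bounds of different genes give no order of change. OVOL3, the remaining family member, was not above background on any array.

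Of the grainyhead-like factors, GRHL2 was not above background in the resistant lines while GRHL1 remained above background. GRHL2 was measured by 2 probes. The brighter one (NM_024915, chr8:102681572-102681631) gave 467 in H1975, against 2.34 in OR1 and 2.58 in OR2, which is at least 36.0-fold lower in OR1 and at least 38.1-fold lower in OR2. The dimmer one (chr8:102678918-102678977) gave 51.5, 4.49 and 3.93, with ratios of at most 0.253 and at most 0.239, so both probes separate H1975 from the resistant lines. The median over both probes bounded the log2 ratio at -3.58 in OR1 and -3.66 in OR2.

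The brighter GRHL1 probe (chr2:10142232-10142291) gave 290.5 in H1975, compared with 36.4 in OR1 and 80.1 in OR2. H1975 was the highest and OR1 the lowest, and each neighbour in that order differed by more than 2 technical SD. With normexp background correction, whose offset makes the log2 ratios of dim probes smaller, that of OR1 over OR2 was -0.36. GRHL1 stood at a ratio of 0.143 in OR1 (log2 ratio -2.81, technical SD 0.23) and 0.268 in OR2 (-1.90, technical SD 0.21). The second GRHL1 probe (chr2:10132177-10132236) was near the detection limit in H1975, at 14.2, and lay at 2.42 in OR1 and 4.56 in OR2, so its ratios, at most 0.916 and at most 0.865, set no call. The median over both probes, with the second at its bound, lay at -1.47 in OR1 and -1.05 in OR2 on the log2 scale, still past 0.5 as a ratio. GRHL3, the remaining grainyhead-like gene, was not above background on any array.

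The ESRP pair split in a similar way. The ESRP1 probe (NM_017697, chr8:95680359-95680418) gave 325 in H1975, against 5.03 in OR1 and 2.81 in OR2, and ESRP1 was at least 25.0-fold lower in OR1 and at least 26.5-fold lower in OR2. The ESRP2 probe (chr16:68263054-68263113, minus strand) was spotted 10 times on each array and gave 3735 in H1975, compared with 1012 in OR1 and 996 in OR2. The spots of an array differed little, with an SD on the log2 scale of 0.02 in H1975 and 0.03 in each resistant line. ESRP2 was 3.23-fold lower in OR1 (log2 ratio -1.69, technical SD 0.20) and 3.85-fold lower in OR2 (-1.95, technical SD 0.20). OR1 and OR2 differed in ESRP2 by 0.25 on the log2 scale, within 2 technical SD. ESRP2 thus stayed well above background in both resistant lines, while ESRP1 did not.

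**Figure D2:**
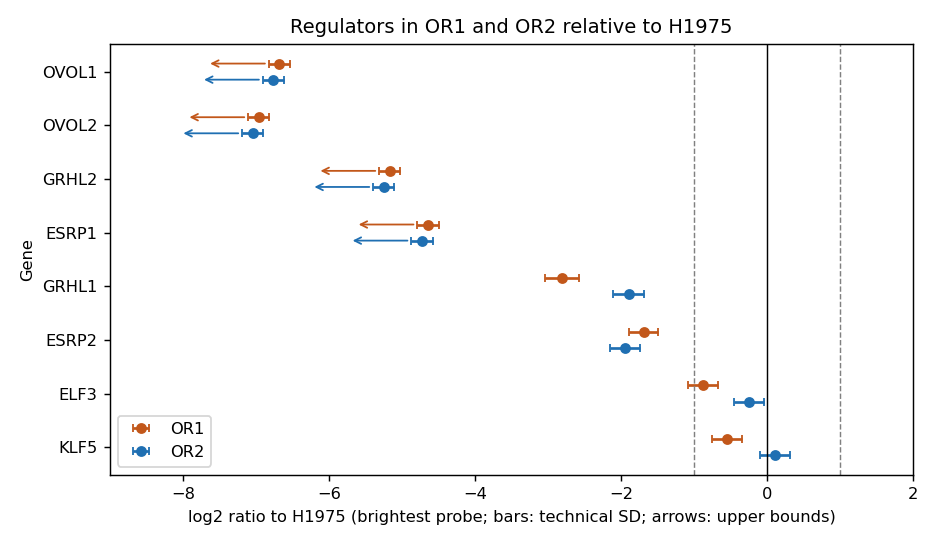
Log2 ratio to H1975 of the brightest probe of 8 regulators in OR1 and OR2, with the technical SD of the scanner software as bars. Arrows mark upper bounds, and dashed lines mark ratios of 0.5 and 2. OVOL1, OVOL2, GRHL2, ESRP1, GRHL1 and ESRP2 lie left of the lower line in both lines, and ELF3 and KLF5 lie between the lines. EHF has no ratio.

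The ETS factors and KLF5 did not pass the ratio. The ELF3 probe (chr1:201984429-201984488) gave 1261 in H1975, against 600.2 in OR1 and 1087 in OR2. ELF3 stood at a ratio of 0.543 in OR1 (log2 ratio -0.88, technical SD 0.20) and 0.839 in OR2 (-0.25, technical SD 0.20), and the OR2 value lay within 2 technical SD of H1975. The KLF5 probe (chr13:73650979-73651038) gave 189 in H1975, compared with 113 in OR1 and 209.9 in OR2. KLF5 had a ratio of 0.681 in OR1 (log2 ratio -0.55, technical SD 0.21) and 1.08 in OR2 (0.11, technical SD 0.21). OR1 was the lowest of the 3 lines for both genes. With scaling on the spike-in probes, which lowers the median of all genes in OR1 by 0.60, the log2 ratio in OR1 was -1.48 for ELF3 and -1.16 for KLF5, past the ratio of 0.5. The EHF probe (chr11:34681911-34681970) gave 3.37 in H1975, against 3.13 in OR1 and 3.37 in OR2, not above background in any line.

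OR1 and OR2 were compared directly for the 4 regulators above background on all arrays. None passed a ratio of 2 or 0.5 between the lines, against 5.13% of all genes, so the lack of any among 4 says little. OR1 was below OR2 for GRHL1 (ratio 0.533), KLF5 (0.631) and ELF3 (0.647), each by more than 2 technical SD, and ESRP2 was at a ratio of 1.19. With spike-in scaling 3 of the 4 passed 0.5, at log2 values of OR1 over OR2 of -1.58 for GRHL1, -1.34 for KLF5 and -1.30 for ELF3, and ESRP2 turned from 0.25 to -0.42. Without scaling, GRHL1 alone passed, at -1.14. With normexp background correction the values were -0.36 for GRHL1, -0.47 for KLF5 and -0.65 for ELF3. Normexp was run with an offset of 50 added to every signal, which makes the log2 ratios of dim probes smaller. The technical SD of GRHL1 (0.24) was taken from signals without that offset, so it cannot judge the normexp value. The size of the GRHL1 difference between the lines depended on this processing. The median log2 ratio of OR1 over OR2 was -0.65 over the 4 genes and 0.07 over all genes. For the other 5 regulators the lines could not be ordered, since neither was above background.

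Of 30 epithelial genes known to lie downstream of these regulators, 22 were lower in both resistant lines and 1 was higher. The shares over all genes were 6.32% and 5.09%. All 30 were above background on at least 1 array. This list was chosen with results of these arrays known. The median log2 ratio was -2.56 in OR1 and -2.17 in OR2. LAD1, an anchoring filament protein of the basement membrane, gave 11724 in H1975, compared with 18.6 in OR1 and 19.4 in OR2, 554-fold and 621-fold lower. MAL2, a protein of apical transport, was at least 338-fold lower in OR1 and at least 358-fold lower in OR2. S100A14, a calcium-binding protein, was 73.4-fold and 50.6-fold lower, and SPINT1, an inhibitor of epithelial serine proteases such as ST14, 55.2-fold and 35.9-fold. CDH1 was 48.8-fold lower in OR1 and 12.5-fold lower in OR2. Genes of the list that were not lower in both lines included the keratins KRT8 (log2 ratio 0.16 in OR1 and -0.05 in OR2) and KRT18 (-0.18 and -0.31). The other keratins of the list, KRT7 (-2.61 and -2.56) and KRT19 (-1.11 and -1.02), were lower in both.

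Of 10 mesenchymal transcription and splicing factors, 1 was higher in both lines and 1 was lower, against 5.09% and 6.32% of all genes. ZEB1, the repressor that opposes several of the regulators, gave 136 in H1975, against 564 in OR1 and 718 in OR2, 4.74 and 5.14 times the parental level. ZEB2 was above background in OR1 only, at an intensity of 28.7 and a ratio of at least 2.61. SNAI1 was 2.72-fold lower in OR1 and 3.52-fold lower in OR2, and SNAI2 had log2 ratios of -0.70 and -0.87. The splicing factors RBFOX2 (0.57 and 0.41) and QKI (0.97 and 0.21) did not pass the ratio in both lines. TWIST1, TWIST2, PRRX1 and FOXC2 were not above background on any array.

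Transcripts whose exons are chosen by ESRP1 and ESRP2 were examined by gene, since a probe outside the chosen exon says nothing of splicing. All 9 were above background, and 1 of them, FGFR2, was higher in both lines, against 5.09% of all genes. Its brightest probe gave 23.8 in H1975, compared with 189 in OR1 and 82.2 in OR2, ratios of 9.06 and 3.36. A second FGFR2 probe was above background only in the resistant lines, at ratios of at least 4.75 and at least 1.30, and the third was not above background on any array. The brightest probes of the other 8 did not pass the ratio in either line. They were 0.38 in OR1 and 0.39 in OR2 for CD44, 0.39 and 0.59 for CTNND1, -0.46 and -0.17 for ENAH, and -0.58 and -0.09 for ARHGEF11. They were -0.18 and -0.23 for NUMB, -0.69 and 0.13 for RAC1, 0.20 and 0.40 for MAP3K7, and 0.27 and 0.20 for EXOC7. Other probes of these genes did not all follow the brightest. A second CD44 probe had ratios of 0.713 and 0.726, but the values of both CD44 probes lay within 2 technical SD of H1975. A second ENAH probe was above background in OR2 only, at a ratio of at least 2.03. The further EXOC7 probes had ratios of 1.91 and 1.53, 0.775 and 0.740, and 1.09 and 0.892. Of these EXOC7 values, only 1.91, 1.53 and 0.740 differed from H1975 by more than 2 technical SD. With spike-in scaling, which lowers OR1 ratios by 0.60, the OR1 values between 0 and 0.60 change sign, and ENAH, ARHGEF11 and RAC1 pass a ratio of 0.5 in OR1.

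**Figure D3:**
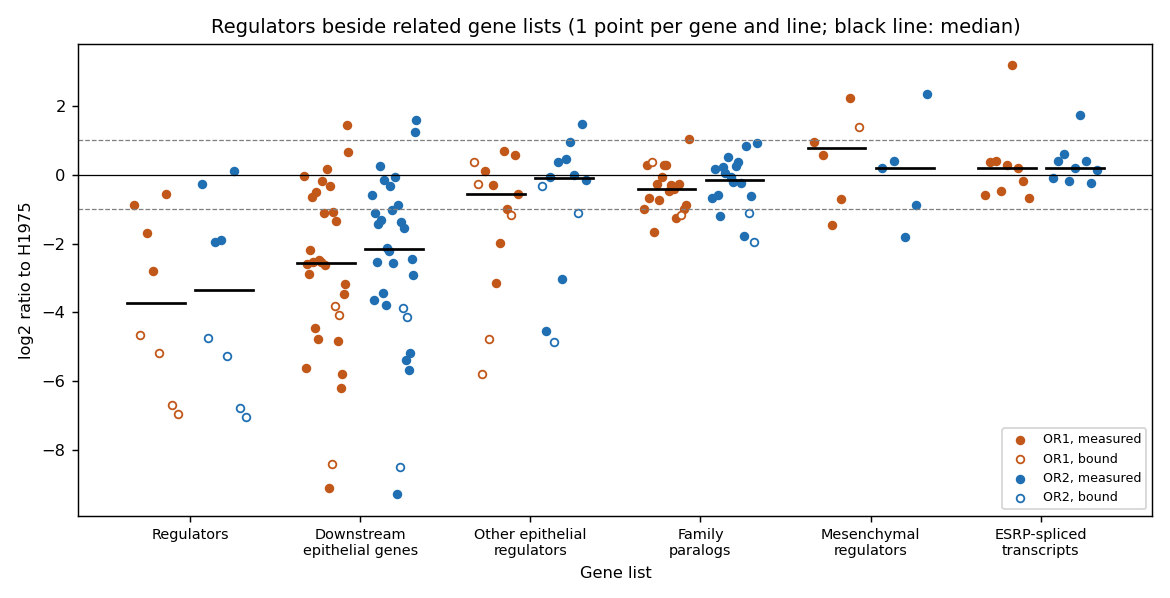
Log2 ratio to H1975 in OR1 and OR2 for the regulators and for 5 gene lists, 1 point per gene and line, with open points for bounds and black lines for medians. Dashed lines mark ratios of 0.5 and 2. The medians of the regulators (-3.73 and -3.34) and of the downstream epithelial genes (-2.56 and -2.17) lie below the lower dashed line, and those of the other lists lie between the dashed lines.

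The 20 nearest genes with a ratio, by probe position, were set beside each regulator. Around OVOL1, none of the 20 was lower in both lines, against 6.32% of all genes. The median log2 ratio of the 20 was 0.45 in OR1 and 0.22 in OR2. Around OVOL2, again none was lower, with medians of 0.37 and 0.17. At a share of 6.32%, a count of none among 20 says little for either gene. The nearest gene to OVOL1, AP5B1, had log2 ratios of 0.25 and 0.26, and the nearest to OVOL2, MGME1, 0.09 and -0.13. With spike-in scaling the OR1 medians around both genes, and that around ELF3 given below, lie under 0.

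Around ESRP1, 5 of the 20 nearest genes were lower in both lines, against 6.32% of all genes. The medians were -0.81 in OR1 and -0.23 in OR2. Over the 10 nearest the medians were -1.04 and -0.73, and over the 40 nearest -0.48 and -0.29. The noncoding transcripts lnc-KIAA1429-1 and LOC100288748, whose probes lie 30.3 and 30.4 kb from that of ESRP1, were nearest, with log2 ratios of at most -3.05 and at most -2.16 in OR1 and at most -3.13 and at most -2.25 in OR2. The others were INTS8 (-1.61 and -1.45), RAD54B (-1.22 and -1.24) and GEM (-2.49 and -1.71). Around GRHL2, on the same chromosome, 4 of 20 were lower and 1 higher, against 6.32% and 5.09% of all genes. The medians there were -0.27 and -0.38. The lower genes included LOC101927172 (at most -2.14 and at most -2.22), YWHAZ (-1.31 and -1.06) and KLF10 (-1.66 and -1.19). With spike-in scaling the OR1 medians were -1.43 around ESRP1 and -0.87 around GRHL2. Between ESRP1 and GRHL2, 52 genes with a ratio had medians of -0.49 in OR1 and -0.51 in OR2, 7 of them (13.5%) were lower in both lines, against 6.32% of all genes, and 3 were higher in both. These neighbours were named after their values were seen. DNA copy number was not measured.

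Around ESRP2 and GRHL1, 1 of the 20 nearest genes each was lower in both lines, near the share of 6.32% of all genes. The medians were -0.23 and -0.37 around ESRP2 and -0.13 and -0.12 around GRHL1. The nearest gene to ESRP2, NFATC3, whose probe lies 1.53 kb away, had log2 ratios of 0.22 in OR1 and 0.0019 in OR2. The lower neighbour was the noncoding transcript lnc-SLC7A6OS-2, 3.09 kb away, at -1.27 in OR1 and -1.42 in OR2, beside -1.69 and -1.95 for ESRP2 itself. Medians around ELF3 were 0.05 and -0.16, and around KLF5 -0.27 and -0.12. The genes around EHF, which was not detected itself, had medians of 0.79 in OR1 and 0.82 in OR2. Of the 20, 5 were higher in both lines, among them CAPRIN1 (1.99 and 1.89), against 5.09% of all genes. With spike-in scaling the OR1 median around EHF was 0.18, and CAPRIN1 was the only 1 of the 20 higher in both lines.

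**Figure D4:**
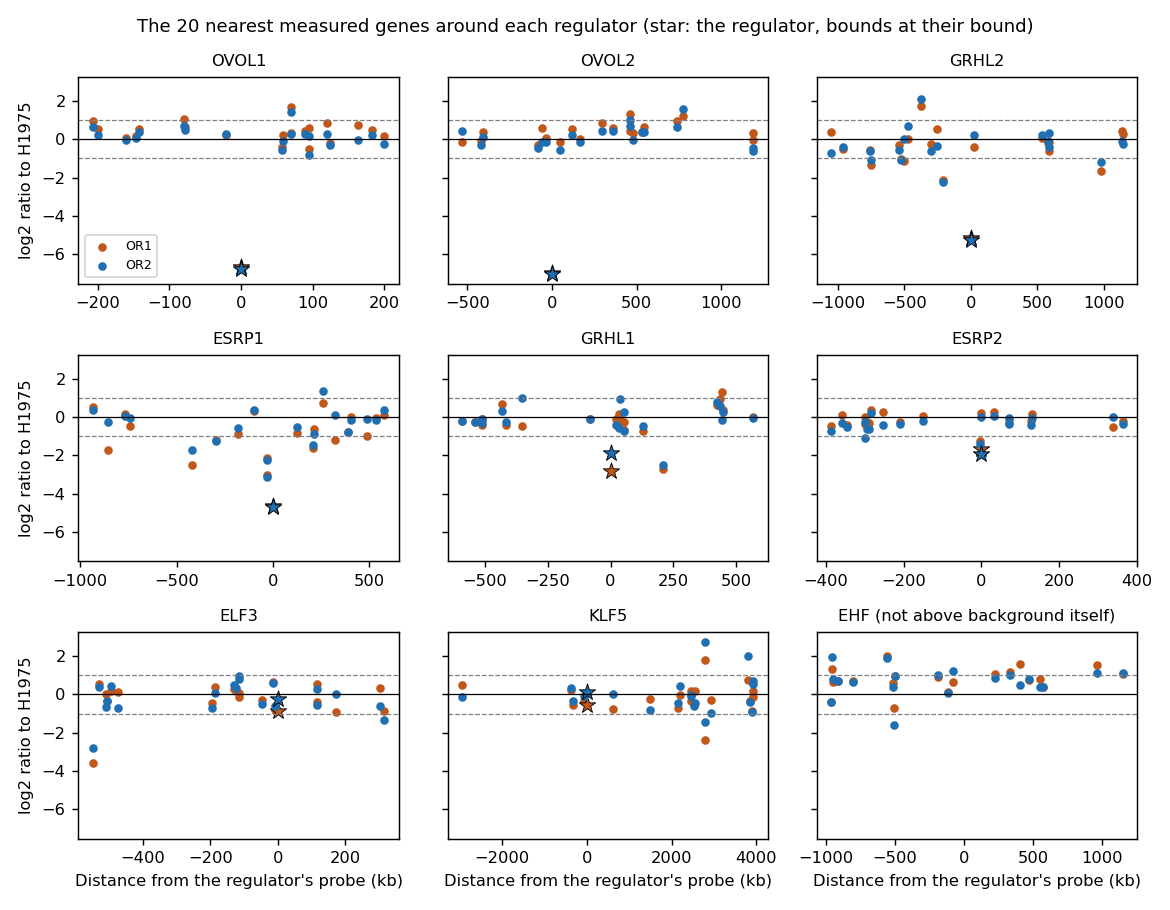
Log2 ratio to H1975 of the 20 nearest genes with a ratio around each regulator against the distance of their probes (kb), in OR1 and OR2. Stars are the regulators, with bounds drawn at the bound, and dashed lines mark ratios of 0.5 and 2. As drawn, the stars of OVOL1, OVOL2, GRHL2, ESRP1 and ESRP2 lie below every neighbour in both lines. Points near ESRP1 reach -3.05 in OR1 and -3.13 in OR2, and those around EHF lie mostly above 0.

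For the 4 regulators above background on all arrays, the genes with the nearest pattern over the 3 lines were listed by Euclidean distance of mean-centred log2 levels, among 18589 genes. They were RRS1, PDLIM7 and TSKU for ESRP2, at distances of 0.055 to 0.064, and MAPK8IP2, LRG1 and ANXA9 for GRHL1, at 0.076 to 0.088. For ELF3 they were ENST00000539977, CYP1B1-AS1 and LOC441455, and for KLF5 lnc-SLC46A2-1, GLUD1 and MYH10. With 3 arrays, close patterns are frequent.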

How the data were processed

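Labelled RNA of each cell line was hybridized to 1 Agilent array. The authors deposited scanner output, in which the intensity of each spot is corrected for background within the array without scaling across arrays, and also deposited normalized values, used only as an alternative. The submitters' processing notes name Feature Extraction 9.5.1.1 and the file headers 10.7.1.1. Arrays were mapped to lines by their titles.

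Control and outlier spots were dropped, replicate spots were averaged as log2 values, and each array's 75th percentile subtracted. The probe with the highest mean level stood for a gene. Genes named from lists were all genes of lists of at most 10, and otherwise the 4 with the largest change in the less changed line each way. CDH1, KRT7, KRT8, KRT18, KRT19 and neighbouring genes were named beyond this rule, with their values seen. The values of some listed genes are not reported here. The members and lists were chosen with earlier results of these data known.

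Alternatives were other scalings (quantile, median, none, 7 spike-in probes, percentile over detected probes), normexp (offset 50), the authors' normalized values, background filters, outlier spots, probe choice, other ratios and limma. Calling was checked on simulated data. Python 3.11.15, numpy 2.4.6, pandas 2.3.3, matplotlib 3.10.9, R 4.3.3 and limma 3.58.1 were used.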

Additional observations from a re-analysis of the deposited data

Results flagged for a closer look

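Among the regulators and the genes of the lists of at most 10 genes, 2 were above H1975 in one resistant line and below it in the other, and the difference was not tested. KLF5 lay at -0.55 in OR1 and 0.11 in OR2 on the log2 scale, a difference between the lines of -0.66, and its OR2 value lay within the technical SD of 0.21. RAC1, a GTPase whose exon choice ESRP factors are known to control, had -0.69 in OR1 and 0.13 in OR2, a difference of -0.81, and its OR2 value too lay within the technical SD of 0.20.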

How the results depend on the processing

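The count of 6 regulators lower in both lines was 2 when genes had to be above background on all 3 arrays, which leaves only ESRP2 and GRHL1 of the 6, and 4 at a ratio of 0.25. The median log2 ratio in OR1 (-3.73) was -4.33 with spike-in scaling, -2.05 with normexp, -4.32 without the background filter and -2.64 with the median over probes. In OR2 (-3.34) it was -2.19, -4.42 and -2.80 under the last 3 of these. With normexp the log2 ratios in OR1 were -4.30 for OVOL1, -4.37 for OVOL2, -2.94 for GRHL2, -2.39 for ESRP1 and -1.72 for GRHL1, all still below -1. No ratio of a regulator to H1975 reversed. The number of regulators past the ratio between OR1 and OR2, none of 4, was 3 with spike-in scaling, 1 without scaling and 3 at a ratio of 1.5, by alternatives chosen after seeing the data. The spike-in values of neighbouring genes were also added then. The medians of neighbouring genes moved with their number, from 0.17 to -0.12 around OVOL2 and from -0.16 to 0.30 around ELF3 in OR2 with the 10 nearest, and from 0.05 to -0.16 around ELF3 in OR1 with the 40 nearest. In limma, the 2 resistant lines were taken as replicates of each other, with 1 residual degree of freedom. H1975, with 1 array, is then assumed to vary as the resistant lines do, so no p value of that fit is given. ESRP1, GRHL2, OVOL1 and OVOL2 passed the background filter through H1975 alone. The fit used their resistant-line signals although these were not above background, so its fold changes exceed the bounds and are not given. For ESRP2 and GRHL1, measured on all arrays, its log2 changes were -1.82 and -2.35. No paired analysis was possible because each line has 1 array, and leaving out a replicate could not be run. Signal over background limits the folds of OVOL1, OVOL2, GRHL2 and ESRP1 to bounds.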

Other observations

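Among 22 family paralogs of the regulators, 19 were above background on at least 1 array. Of these, 3 were lower in both resistant lines and none was higher, against 6.32% and 5.09% of all genes. The lack of higher genes among 19 says little. The median log2 ratios of the paralogs were -0.40 in OR1 and -0.14 in OR2. The lower paralogs were KLF7 (-1.27 and -1.78), KLF10 (-1.66 and -1.19) and the ETS factor SPDEF (at most -1.17 and at most -1.10).

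Of 18 other epithelial transcription and splicing regulators, 4 were lower in both lines and none was higher, with 13 above background. The shares over all genes were 6.32% lower and 5.09% higher, so the lack of higher genes among 13 says little. Their median log2 ratios were -0.56 in OR1 and -0.10 in OR2. FOXA2, a factor of foregut endoderm, was at least 55.4-fold lower in OR1 and 23.1-fold lower in OR2. MYB was 8.76-fold and 8.18-fold lower, and SPDEF, given above, was also among them. NKX2-1, the lineage factor of lung epithelium, gave 832 in H1975, 184 in OR1 and 1167 in OR2, log2 ratios of -1.99 and 0.45. These lists were chosen with results of these arrays known.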
